A study of Arabidopsis thaliana with 24 samples.

Results

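The salicylic acid immunity genes described here are 10 Arabidopsis thaliana genes picked by locus identifier for their known roles: CBP60G (AT5G26920), SARD1 (AT1G73805), EDS1 (AT3G48090), PAD4 (AT3G52430), SNC1 (AT4G16890), ICS1 (AT1G74710), EDS5 (AT4G39030), NPR1 (AT1G64280), WRKY70 (AT3G56400) and PR5 (AT1G75040). The choice was made with earlier results of these data known. All 10 were present among the 23390 genes of the 1 h expression table and among the 23282 genes of the 12 h table. RNA was sequenced from whole seedlings of ino80-5 mutants and of the wild type, both of ecotype Col, raised for 7 days in short days at 21 °C and then moved to 27 °C or left at 21 °C. The 8 groups, with 3 libraries each, were ino80-5 at 27 °C, ino80-5 at 21 °C, wild type (Col) at 27 °C and Col at 21 °C, each after 1 h and after 12 h. INO80 encodes the catalytic subunit of a nucleosome remodeller, and the mutant line is called ino80 below. The labels do not say whether the libraries of a group came from separate sets of plants, so the p-values measure the spread between these libraries, which may be technical. Expression was deposited as TPM, a relative transcript level corrected for gene length and library size, and the 2 times were deposited as separate tables and were not tested against each other.

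Salicylic acid is a plant hormone of defence against pathogens that live on living tissue. CBP60G and SARD1 are related transcription factors that switch on ICS1, the plastid enzyme that makes the isochorismate from which most of the hormone is built, and EDS5 carries that precursor out of the plastid. EDS1 and PAD4 form a lipase-like signalling pair downstream of receptors of the class of SNC1, NPR1 is a receptor and coactivator for the hormone, and WRKY70 and PR5 are among the genes it induces. Warmth is known to weaken this pathway in Arabidopsis leaves.

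INO80 itself (AT3G57300) was lower in ino80 libraries than in Col libraries under each condition. At 1 h it was 10.9 to 11.6 TPM in ino80 at 27 °C and 12.6 to 14.9 TPM in ino80 at 21 °C, against 14.4 to 16.7 TPM in Col at 27 °C and 17.0 to 20.3 TPM in Col at 21 °C. At 12 h it was 22.7 to 32.1 and 16.4 to 17.5 TPM in ino80 at 27 °C and 21 °C, against 37.0 to 47.9 and 20.0 to 22.5 TPM in Col at 27 °C and 21 °C. The labels do not say which part of the gene the allele disrupts. The libraries held an estimated 13.2 M to 25.2 M fragments at 1 h and 13.5 M to 15.5 M at 12 h, so that 1 fragment in a gene of 1 kb was worth 0.0675 to 0.130 TPM and 0.108 to 0.127 TPM.

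The promoters were compared first, because they carry the binding motifs of the factor families in this pathway. For each gene the 250 bases before the annotated start were read from RefSeq assembly TAIR10.1 and searched on both strands for TTGAC (the core of the W-box bound by WRKY factors), TGACG (bound by TGA factors, the partners of NPR1), GAAATTT (bound by CBP60G and SARD1), CGCG (the core bound by CAMTA factors) and CACGTG (the G-box). TTGAC was found in 6 of the 10 promoters and in 44.9% of 27443 promoters of the same length, and TGACG in 3 of 10 and in 18.6%. CGCG was found in 2 of 10 and in 10.1%, GAAATTT in 1 of 10 and in 12.5%, and CACGTG in 0 of 10 and in 6.49%. The promoters of CBP60G, PAD4 and NPR1 held none of these letters within this window. 5 promoters are printed 5′ to 3′ on the gene's own strand, ending at the base before the start, with every match in capitals. They were chosen because SARD1 and CBP60G are the paired regulators, ICS1 is the gene they switch on, and WRKY70 and PR5 differed most in direction at 12 h.
CBP60G: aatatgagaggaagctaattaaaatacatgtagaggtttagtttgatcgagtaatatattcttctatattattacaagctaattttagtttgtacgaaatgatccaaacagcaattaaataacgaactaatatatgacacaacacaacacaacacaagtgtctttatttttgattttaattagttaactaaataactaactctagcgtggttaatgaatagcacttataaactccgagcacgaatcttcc
SARD1: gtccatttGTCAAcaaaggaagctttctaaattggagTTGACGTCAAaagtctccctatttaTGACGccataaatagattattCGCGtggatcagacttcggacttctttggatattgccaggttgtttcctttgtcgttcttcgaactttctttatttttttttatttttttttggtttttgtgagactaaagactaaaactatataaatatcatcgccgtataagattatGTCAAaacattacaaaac
ICS1: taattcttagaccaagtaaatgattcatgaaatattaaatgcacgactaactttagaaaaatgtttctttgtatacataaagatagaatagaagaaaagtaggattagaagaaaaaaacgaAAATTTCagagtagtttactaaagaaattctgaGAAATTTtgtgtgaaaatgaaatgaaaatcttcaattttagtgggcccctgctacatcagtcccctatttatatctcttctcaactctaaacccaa
WRKY70: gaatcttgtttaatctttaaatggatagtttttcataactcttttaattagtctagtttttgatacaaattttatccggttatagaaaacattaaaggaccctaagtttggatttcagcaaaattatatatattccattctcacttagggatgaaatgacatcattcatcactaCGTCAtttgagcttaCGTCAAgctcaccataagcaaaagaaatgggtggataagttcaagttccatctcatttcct
PR5: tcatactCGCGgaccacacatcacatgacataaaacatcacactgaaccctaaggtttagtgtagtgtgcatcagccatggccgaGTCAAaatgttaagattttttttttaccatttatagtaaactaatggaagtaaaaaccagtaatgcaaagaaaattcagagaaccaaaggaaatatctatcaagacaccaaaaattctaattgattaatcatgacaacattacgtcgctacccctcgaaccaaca
The CBP60G window is chr5:9475429-9475678 (plus strand) and that of SARD1 is chr1:27749249-27749498 (minus strand). Those of ICS1, WRKY70 and PR5 are chr1:28070045-28070294 (plus strand), chr3:20910624-20910873 (minus strand) and chr1:28177420-28177669 (plus strand). The SARD1 promoter was the richest of the 10, with 4 TTGAC, 3 TGACG and 1 CGCG, and its TTGAC matches at 213 and 208 bases before the start overlap TGACG matches at 212 and 209 bases. ICS1 held 2 matches of GAAATTT, 129 and 96 bases before its start. WRKY70 held TGACG at 76 and 61 bases, the nearer one overlapping TTGAC at 60 bases, and PR5 held CGCG at 243 and TTGAC at 165 bases. Such a match is a description of the letters and not a bound site.

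By level, SNC1 was the most abundant of the 10 genes and SARD1 the least in all 8 groups. In TPM, which is per length, SNC1 averaged 41.4 ± 2.56 and 82.3 ± 6.24 in ino80 at 27 °C and 21 °C after 1 h, against 40.7 ± 1.43 and 76.2 ± 4.30 in Col (SD, n = 3). SARD1 averaged 0.234 ± 0.0572 and 0.860 ± 0.210 TPM in the same ino80 groups, against 0.0930 ± 0.0217 and 0.522 ± 0.185 TPM in Col. NPR1 followed SNC1 in every group, with library ranges that overlapped those of PR5 in Col at 21 °C after 1 h. At 1 h and 27 °C the order in both genotypes went on with EDS1 and EDS5, and ended with WRKY70 and CBP60G, whose ranges overlapped, and SARD1. Between them ICS1 and PR5 overlapped in ino80 and came before PAD4, while PR5, ICS1 and PAD4 stood apart in that order in Col. At 1 h and 21 °C CBP60G stood higher in the order, and its range overlapped those of ICS1 and EDS5 in both genotypes. EDS1 and PR5 overlapped in ino80 at 21 °C, and PAD4 with EDS5 and WRKY70 with SARD1 in Col. At 12 h WRKY70 stood just above EDS1 in ino80 at 27 °C, with overlapping ranges, followed by CBP60G and then by PAD4, EDS5, PR5 and ICS1, each overlapping the next. In ino80 at 21 °C EDS1 was followed by PR5, CBP60G, WRKY70 and PAD4, which overlapped in turn, and then by EDS5 and ICS1. In Col at 27 °C EDS1 was followed by WRKY70, CBP60G, EDS5 and PAD4, also overlapping in turn, and then by ICS1 and PR5, which stood apart. In Col at 21 °C PR5 came next after EDS1, ahead of PAD4, CBP60G, EDS5, WRKY70 and ICS1, each of these 5 overlapping its neighbour. ICS1 and SARD1 overlapped in ino80 at 27 °C after 12 h, so SARD1 was not clearly the lowest there. SNC1 shares 92.9% of the bases over an aligned 1530 bases with RPP5 of the same receptor cluster, so its reads may have been split or shared between copies and its level is uncertain. EDS1 shares 82.6% over 2186 bases with AT3G48080, and ICS1 shares 79.7% over 1524 bases with ICS2. PR5 shares 76.0% over 987 bases with TLP-3.

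**Figure D1:**
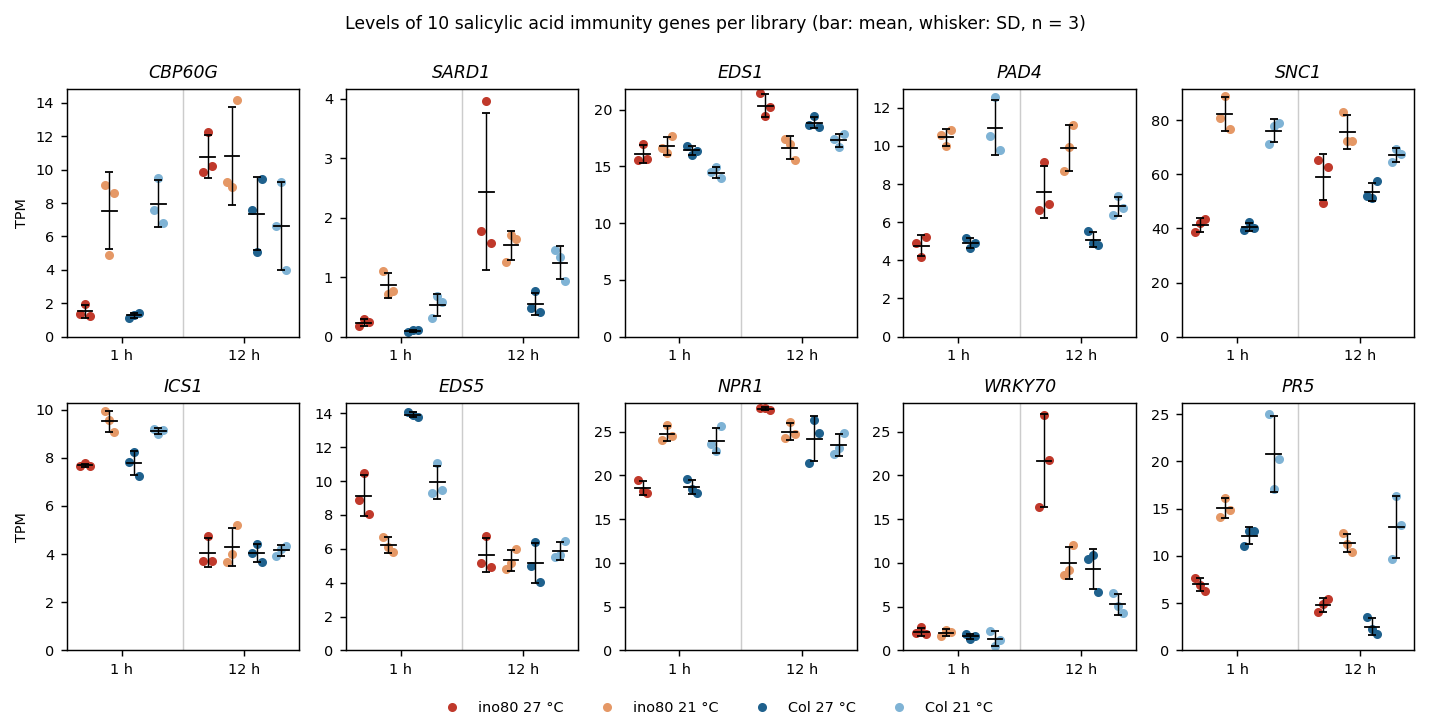
TPM of each of the 10 genes in every library, with 1 h on the left and 12 h on the right of each panel and the groups in the order ino80 27 °C, ino80 21 °C, Col 27 °C, Col 21 °C (points: libraries; bar and whisker: mean and SD, n = 3; each y axis starts at 0). At 1 h all 27 °C libraries of CBP60G lie at or below 1.96 TPM and all 21 °C libraries at or above 4.89 TPM, whereas at 12 h the temperatures overlap.

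After 1 h at 27 °C, 6 of the 9 tested genes were lower than at 21 °C in both genotypes, and 1 was higher. Of the 9 genes tested, CBP60G, PAD4, SNC1, ICS1, NPR1 and PR5 fell and EDS5 rose in ino80, and the same 7 genes changed in the same directions in Col. That is 7 of 9 called in each genotype, beside 32.0% of all tested genes in ino80 and 34.2% in Col, and 6 of 9 called lower, beside 16.8% and 18.5%. As the genes were chosen with earlier results of these data known, these shares describe the set and are not a test of it. The median log2 fold change of the 9 genes was -0.40 in ino80 and -0.34 in Col, beside 0.00 and -0.00 over all tested genes. A gene was tested where at least 3 of 12 libraries reached 1 TPM and called at an adjusted p below 0.05 (limma on log2(TPM + 1), two-sided, Benjamini-Hochberg over all tested genes). Fold changes are on the log2(TPM + 1) scale, which understates those of low genes. SARD1 was not tested at 1 h, because 1 of 12 libraries reached 1 TPM. Groups without overlap were common over all tested genes. Their share was 44.5% to 52.4% across the pairwise contrasts at 1 h and 40.6% to 63.8% at 12 h. For warmth at 1 h, 7 of 9 genes had no overlap in ino80 and 8 of 9 in Col, beside 46.2% and 44.7%.

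Among the transcription factors, CBP60G changed most. It was 1.35, 1.96 and 1.23 TPM in ino80 at 27 °C, against 9.09, 4.89 and 8.62 TPM in ino80 at 21 °C. In Col it was 1.12, 1.31 and 1.41 TPM at 27 °C, against 7.60, 9.52 and 6.81 TPM at 21 °C. Every warm library was below every cool one, and the log2 fold changes were -1.73 ± 0.18 (SE) in ino80 (adjusted p = 2.0e-06) and -1.97 ± 0.18 in Col (adjusted p = 4.6e-07). SARD1, its relative, was 0.175, 0.289 and 0.238 TPM in ino80 at 27 °C, against 1.101, 0.718 and 0.762 TPM in ino80 at 21 °C. It was 0.0679, 0.106 and 0.105 TPM in Col at 27 °C, against 0.315, 0.673 and 0.578 TPM in Col at 21 °C. Its warm libraries were also all below its cool ones, but these levels rest on an estimated 2 to 33 fragments per library. Without the filter on low values its log2 fold change was -0.59 ± 0.10 in ino80 (adjusted p = 0.00073) and -0.47 ± 0.10 in Col (adjusted p = 0.0031, limma). The SARD1 gene overlaps GIP2 on the opposite strand by 640 bases, and as the strand setting of the counting is not stated, reads of the 2 genes cannot be told apart there.

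In the EDS1 branch, PAD4 and SNC1 fell and EDS1 did not pass the test. PAD4, the partner of EDS1, was 4.90, 4.17 and 5.22 TPM in ino80 at 27 °C, against 10.6, 9.97 and 10.8 TPM in ino80 at 21 °C. In Col it was 5.19, 4.66 and 4.89 TPM at 27 °C, against 10.5, 12.6 and 9.78 TPM at 21 °C. The temperatures did not overlap in either genotype, and on the log2 scale PAD4 fell by 1.00 ± 0.10 in ino80 (adjusted p = 1.3e-06) and by 1.01 ± 0.10 in Col (adjusted p = 1.0e-06). The receptor gene SNC1 was 38.5 to 43.5 TPM in ino80 at 27 °C, against 76.8 to 89.1 TPM in ino80 at 21 °C, and 39.6 to 42.3 TPM in Col at 27 °C, against 71.3 to 79.2 TPM in Col at 21 °C. Its log2 fold changes were -0.97 ± 0.07 in ino80 (adjusted p = 1.4e-08) and -0.89 ± 0.07 in Col (adjusted p = 3.6e-08), again without overlap. EDS1, the shared partner in this branch, was 15.5 to 17.0 TPM in ino80 at 27 °C, against 16.1 to 17.7 TPM in ino80 at 21 °C, and its log2 fold change was -0.06 with a 95% interval of -0.20 to 0.08. In Col EDS1 was 16.0 to 16.8 TPM at 27 °C, against 14.0 to 14.9 TPM at 21 °C, a log2 fold change of 0.17 (adjusted p = 0.053). That Col value passed the threshold without Col 21 °C library 2 (adjusted p = 0.046) and under 4 other settings (adjusted p = 0.025 to 0.049).

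The synthesis gene fell and the transport gene rose. ICS1, which makes the precursor, was 7.65, 7.77 and 7.65 TPM in ino80 at 27 °C, against 9.93, 9.56 and 9.07 TPM in ino80 at 21 °C, with a log2 fold change of -0.27 ± 0.07 (adjusted p = 0.011). In Col it was 7.84, 8.24 and 7.26 TPM at 27 °C, against 9.21, 8.97 and 9.15 TPM at 21 °C, with a log2 fold change of -0.21 ± 0.07 (adjusted p = 0.045). All warm libraries were below all cool ones, by far less than for CBP60G. The Col call was lost without Col 21 °C library 1, 2 or 3 (adjusted p = 0.092, 0.056 and 0.10), without Col 27 °C library 1 or 3 (0.088 and 0.15), with robust moderation (0.052) and with the compared groups fitted alone (0.11). EDS5, the exporter, was 8.87, 10.5 and 8.07 TPM in ino80 at 27 °C, against 6.72, 6.12 and 5.83 TPM in ino80 at 21 °C. It was 14.1, 13.9 and 13.8 TPM in Col at 27 °C, against 9.28, 11.1 and 9.47 TPM in Col at 21 °C. EDS5 was the only one of the 9 tested genes with a call in the upward direction, by 0.48 ± 0.10 in ino80 (adjusted p = 0.0010) and 0.45 ± 0.10 in Col (adjusted p = 0.0016). EDS5 overlaps AT4G39040 on the opposite strand by 213 bases, so part of its reads cannot be assigned with certainty.

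Of the receptor and the response genes, NPR1 and PR5 fell and WRKY70 did not pass the test. NPR1 was 18.0 to 19.4 TPM in ino80 at 27 °C, against 24.1 to 25.7 TPM in ino80 at 21 °C, and 18.0 to 19.6 TPM in Col at 27 °C, against 22.8 to 25.6 TPM in Col at 21 °C. The groups did not overlap, and the log2 fold changes were -0.40 ± 0.06 in ino80 (adjusted p = 0.00017) and -0.34 ± 0.06 in Col (adjusted p = 0.00059). The NPR1 gene overlaps the non-coding AT1G08667 by 214 bases and the pseudogene AT1G64270 by 38 bases, both on the opposite strand, so its value carries the same uncertainty. PR5, a thaumatin-like protein of the defence response, was 7.70, 6.94 and 6.28 TPM in ino80 at 27 °C, against 14.1, 16.2 and 14.9 TPM in ino80 at 21 °C. In Col it was 11.1, 12.7 and 12.6 TPM at 27 °C, against 25.0, 17.1 and 20.3 TPM at 21 °C. The warm libraries were the lower ones in both genotypes, with log2 fold changes of -1.01 ± 0.11 in ino80 (adjusted p = 4.4e-06) and -0.72 ± 0.11 in Col (adjusted p = 0.00013). WRKY70, which balances salicylic acid against jasmonate responses, was scarce at 1 h, at 1.83 to 2.65 TPM in ino80 at 27 °C, 1.60 to 2.35 TPM in ino80 at 21 °C, 1.34 to 1.82 TPM in Col at 27 °C and 0.546 to 2.25 TPM in Col at 21 °C. The temperatures overlapped in both genotypes, and the intervals of its log2 fold change reached from -0.39 to 0.50 in ino80 and from -0.24 to 0.65 in Col.

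Between the genotypes at 1 h, EDS5 and PR5 were lower in ino80 at both temperatures, and most of the other genes did not pass the test. At 27 °C 2 of 9 were called, beside 37.4% of all tested genes, and both were lower, beside 20.4%. At 21 °C 3 of 9 were called, beside 35.9%, of which EDS1 was higher and the other two lower, beside 15.4% and 20.5%. The shares called in either direction were below those of all tested genes, and 2 of 9 called lower is close to the share of all genes at each temperature. The log2 difference of EDS5 was -0.57 ± 0.10 at 27 °C (adjusted p = 0.00025). It was -0.60 ± 0.10 at the lower temperature (adjusted p = 0.00016), and its ino80 libraries were all below its Col libraries at each temperature. For PR5 it was -0.72 ± 0.11 (adjusted p = 0.00014) in the warmth and -0.43 ± 0.11 (adjusted p = 0.0080) at 21 °C, also without overlap. EDS1 was higher in ino80 at 21 °C by 0.21 ± 0.06 (adjusted p = 0.022), a call lost without Col 21 °C library 3 (adjusted p = 0.081), without ino80 21 °C library 1 or 3 (0.050 and 0.089) and with the compared groups fitted alone (0.066). WRKY70 differed at 21 °C by 0.43 ± 0.21 (adjusted p = 0.13), by 0.70 without Col 21 °C library 1, the highest of its group (adjusted p = 0.0087), and by 0.16 without Col 21 °C library 2, the lowest (adjusted p = 0.53). SARD1, which was fitted only without the filter on low values, was higher in ino80 at 21 °C by 0.29 ± 0.10 (adjusted p = 0.042, limma) and differed by 0.17 ± 0.10 at 27 °C (adjusted p = 0.21). CBP60G, PAD4, SNC1, ICS1 and NPR1 differed by -0.10 to 0.13 on the log2 scale. At 27 °C the interval was -0.15 to 0.13 for NPR1 and -0.25 to 0.52 for CBP60G. In these whole seedlings, fewer cells of a type and less RNA per cell cannot be told apart.

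Root and seed markers moved with the genotype at 1 h, and the leaf markers overlapped between the genotypes. The root markers were also lower at 27 °C than at 21 °C in both genotypes. The summed level of 3 leaf markers was 63059 to 66638 TPM in ino80 at 27 °C and 66628 to 69672 TPM in ino80 at 21 °C, against 63856 to 65843 and 61321 to 73136 TPM in Col. The summed level of 4 root markers was 1825 to 1921 TPM in ino80 at 27 °C and 2136 to 2243 TPM in ino80 at 21 °C after 1 h, against 1477 to 1613 and 1670 to 1754 TPM in Col. That of 3 seed storage markers was 73.4 to 77.0 and 58.7 to 66.6 TPM in ino80, against 8.22 to 15.5 and 8.16 to 13.8 TPM in Col. The 3 floral organ markers summed to 1.34 to 1.45 and 1.85 to 2.42 TPM in ino80, against 0.460 to 0.703 and 0.343 to 0.749 TPM in Col. That sum was thus low, and higher in ino80 at both temperatures. No root, seed or leaf marker was at 0 in all 3 libraries of a group, while the floral organ marker AP3 was at 0 in all libraries of ino80 at 21 °C. The part of these shifts in the genotype differences was not tested.

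**Figure D2:**
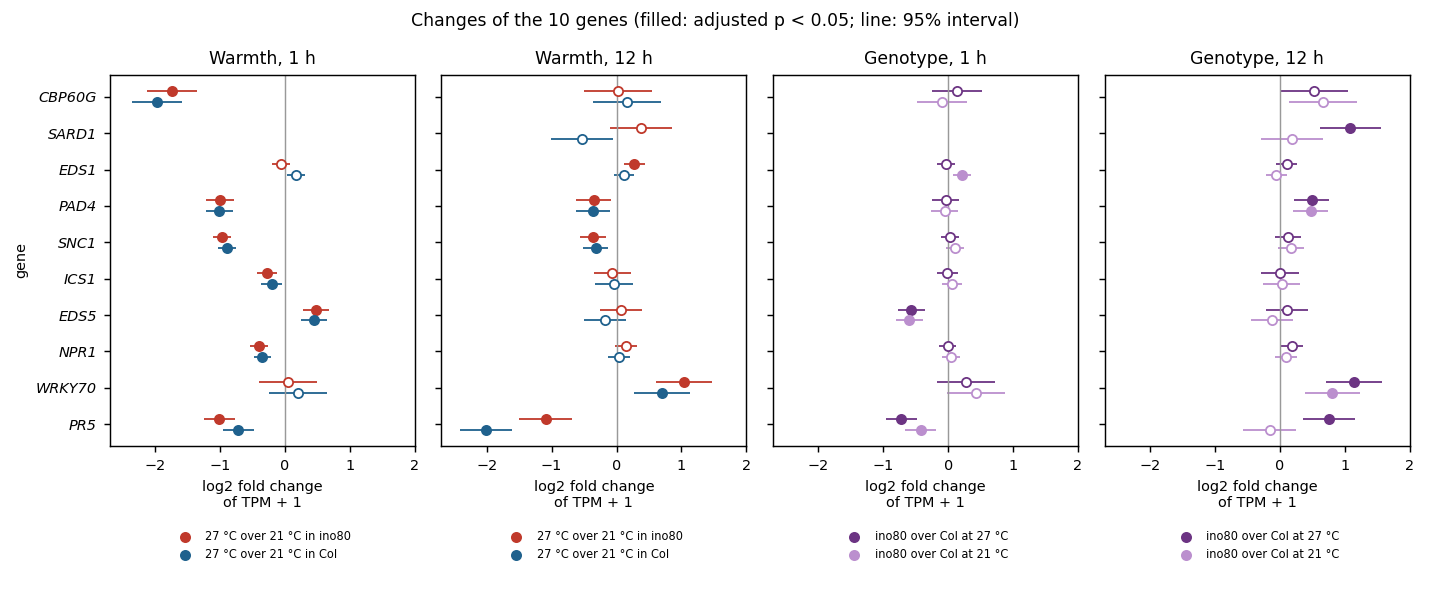
Log2 fold changes of TPM + 1 of the 10 genes for warmth (27 °C over 21 °C, left pair of panels) and genotype (ino80 over Col, right pair) at 1 h and 12 h, with 95% intervals (lines) and calls at adjusted p below 0.05 (filled points). The fall of CBP60G at 1 h (-1.73 in ino80 and -1.97 in Col) has no counterpart at 12 h (0.02 and 0.16), and PR5 is lower in ino80 at 27 °C at 1 h (-0.72) and higher at 12 h (0.76).

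After 12 h at 27 °C, the called genes went in both directions. In ino80 PAD4, SNC1 and PR5 fell and EDS1 and WRKY70 rose, which is 5 of 10, beside 57.4% of all tested genes. In Col the same 3 genes fell and WRKY70 rose, which is 4 of 10, beside 58.6%. By direction, 2 and 1 were called higher, beside 38.1% and 36.8%, and 3 and 3 lower, beside 19.3% and 21.8%, so the share of the 10 genes called higher was below that of all genes. The median log2 fold change of the 10 genes was 0.04 in ino80 and -0.10 in Col, beside 0.15 and 0.13 over all 19578 tested genes. That offset of all genes vanished (0.01 in both) when libraries were rescaled by the median of ratios, and the share of higher calls was then 49.1%, against 66.3% as deposited, in ino80 and 49.9%, against 62.8%, in Col. All 10 genes were tested. SARD1 passed the filter through 8 libraries of 3 groups, with all libraries of Col at 27 °C below 1 TPM.

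WRKY70 rose and PR5 fell most. WRKY70 was 16.4, 26.9 and 21.7 TPM in ino80 at 27 °C, against 8.66, 9.18 and 12.1 TPM in ino80 at 21 °C. It was 10.4, 10.9 and 6.64 TPM in Col at 27 °C, against 6.59, 5.02 and 4.22 TPM in Col at 21 °C. The warm libraries were higher without overlap in both genotypes, narrowly so in Col, by 1.04 ± 0.20 in ino80 (adjusted p = 0.00049) and 0.71 ± 0.20 in Col (adjusted p = 0.0074), or 0.89 and 0.58 relative to the median of all genes. PR5 was 4.07, 4.90 and 5.46 TPM in ino80 at 27 °C, against 12.4, 11.2 and 10.5 TPM in ino80 at 21 °C. It was 3.50, 2.26 and 1.73 TPM in Col at 27 °C, against 9.64, 16.3 and 13.3 TPM in Col at 21 °C. The values of Col at 27 °C rest on an estimated 34, 21 and 15 fragments. Every warm PR5 library was below every cool one, with log2 fold changes of -1.09 ± 0.19 in ino80 (adjusted p = 0.00018) and -2.01 ± 0.19 in Col (adjusted p = 4.4e-07), or -1.24 and -2.14 relative to all genes. WRKY70 and PR5 are both induced by the hormone, and they moved in opposite directions here.

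PAD4 and SNC1 were lower in the warmth at 12 h as well. PAD4 was 6.66, 9.14 and 6.95 TPM in ino80 at 27 °C, against 8.67, 9.92 and 11.1 TPM in ino80 at 21 °C. It was 5.54, 4.90 and 4.81 TPM in Col at 27 °C, against 6.36, 7.37 and 6.75 TPM in Col at 21 °C. The ino80 groups overlapped and the Col groups did not, and the log2 fold changes were -0.35 ± 0.13 in ino80 (adjusted p = 0.028) and -0.36 ± 0.13 in Col (adjusted p = 0.023). The ino80 call was lost without ino80 21 °C library 2 or 3 (adjusted p = 0.065 and 0.12), without ino80 27 °C library 1 or 3 (0.11 and 0.095) and with the compared groups fitted alone (0.051), and the Col call without Col 21 °C library 2 (0.081) or Col 27 °C library 2 or 3 (0.060 and 0.067). SNC1 was 49.5 to 65.3 TPM in ino80 at 27 °C, against 72.2 to 83.1 TPM in ino80 at 21 °C, and 51.3 to 57.5 TPM in Col at 27 °C, against 64.6 to 69.5 TPM in Col at 21 °C. Its groups did not overlap, with log2 fold changes of -0.36 ± 0.09 in ino80 (adjusted p = 0.0042) and -0.32 ± 0.09 in Col (adjusted p = 0.0081). Without ino80 27 °C library 2 the ino80 value was -0.24 (adjusted p = 0.017). EDS1 was 19.4 to 21.4 TPM in ino80 at 27 °C, against 15.5 to 17.4 TPM in ino80 at 21 °C, a log2 fold change of 0.27 ± 0.07 (adjusted p = 0.0055) that was 0.12 relative to all genes. The EDS1 call was lost with rescaling by the median of ratios (adjusted p = 0.15) and with quantile normalization (adjusted p = 0.21).

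CBP60G, ICS1, EDS5 and NPR1 did not pass the test for warmth at 12 h in either genotype. CBP60G was 9.88, 12.2 and 10.2 TPM in ino80 at 27 °C, against 9.24, 8.95 and 14.2 TPM in ino80 at 21 °C, and its interval was -0.50 to 0.54 on the log2 scale. In Col it was 7.57, 5.08 and 9.47 TPM at 27 °C, against 6.64, 9.26 and 3.98 TPM at 21 °C, with an interval of -0.36 to 0.68. Its libraries overlapped in both genotypes, and both intervals exclude a fall as large as the one at 1 h. ICS1 lay between 3.65 and 5.20 TPM in all 12 libraries, with group means from 4.03 to 4.29 TPM. EDS5 lay between 4.04 and 6.77 TPM and NPR1 between 21.4 and 27.7 TPM. SARD1 was 1.77, 3.96 and 1.57 TPM in ino80 at 27 °C, against 1.255, 1.70 and 1.64 TPM in ino80 at 21 °C, a log2 fold change of 0.38 ± 0.22 (adjusted p = 0.16) with overlapping groups. In Col SARD1 was 0.481, 0.764 and 0.415 TPM at 27 °C, against 1.45, 1.34 and 0.930 TPM at 21 °C, without overlap, and its log2 fold change of -0.53 ± 0.22 missed the threshold (adjusted p = 0.055). That value passed it without Col 21 °C library 3 or Col 27 °C library 2 (adjusted p = 0.048 for both), with a pseudocount of 0.1 (-1.05, adjusted p = 0.020) and under 4 other settings (adjusted p = 0.021 to 0.036).

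Between the genotypes at 12 h, the called genes were all higher in ino80. At 27 °C SARD1, PAD4, WRKY70 and PR5 were higher, which is 4 of 10, beside 30.2% of all tested genes, and beside 18.7% called higher. At 21 °C PAD4 and WRKY70 were higher, which is 2 of 10, beside 28.8% and, for higher calls alone, 16.7%. The count at 21 °C is thus below the share of all genes called and close to the share called higher. The median log2 difference of the 10 genes was 0.34 at 27 °C and 0.13 at 21 °C, beside 0.05 and 0.03 over all tested genes. At 27 °C the share of higher calls among all called genes was 61.9% as deposited and 46.0% after rescaling by the median of ratios, and none of the 4 genes lost its call with it.

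At 27 °C the ino80 libraries of all 4 genes lay above the Col libraries. In this contrast 6 of the 10 genes had groups without overlap, beside 40.6% of all tested genes. WRKY70 differed by 1.14 ± 0.20 (adjusted p = 0.00067) and SARD1 by 1.09 ± 0.22 (adjusted p = 0.0020), with group means of 2.44 ± 1.33 TPM in ino80 and 0.553 ± 0.186 TPM in Col for SARD1 (SD, n = 3 each). The SARD1 mean in ino80 rests in large part on library 2, at 3.96 TPM, and all SARD1 levels at 12 h rest on an estimated 8 to 77 fragments. PR5 averaged 4.81 ± 0.702 TPM in ino80 and 2.50 ± 0.909 TPM in Col, a difference of 0.76 ± 0.19 (adjusted p = 0.0075), and PAD4 averaged 7.59 ± 1.36 and 5.09 ± 0.400 TPM, a difference of 0.49 ± 0.13 (adjusted p = 0.0091). At 21 °C WRKY70 averaged 9.97 ± 1.83 TPM in ino80 and 5.28 ± 1.21 TPM in Col, a difference of 0.81 ± 0.20 (adjusted p = 0.0077). PAD4 averaged 9.89 ± 1.21 TPM in ino80 and 6.82 ± 0.510 TPM in Col at 21 °C, a difference of 0.47 ± 0.13 (adjusted p = 0.012) that lost its call without ino80 21 °C library 3 (adjusted p = 0.061). The libraries of both genes were higher in ino80 without overlap.

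CBP60G did not pass the genotype test at 12 h, although its ino80 libraries were all above its Col libraries at 27 °C. At 27 °C its log2 difference was 0.52 ± 0.24 (adjusted p = 0.12). At 21 °C it was 0.66 ± 0.24 (adjusted p = 0.056), and this value was 0.91 without Col 21 °C library 2 (adjusted p = 0.016) and 0.39 without Col 21 °C library 3 (adjusted p = 0.25). NPR1 differed by 0.19 at 27 °C (adjusted p = 0.086), by 0.25 without Col 27 °C library 2 (adjusted p = 0.041) and by 0.11 without Col 27 °C library 1 (adjusted p = 0.32). SNC1 differed by 0.13 at 27 °C (adjusted p = 0.32), by 0.25 without ino80 27 °C library 2 (adjusted p = 0.027), and by 0.06 and 0.09 without ino80 27 °C library 1 and 3 (adjusted p = 0.72 and 0.60). ICS1 differed by -0.00 at 27 °C with an interval of -0.29 to 0.29, and by 0.03 at 21 °C with an interval of -0.26 to 0.32. No genotype difference of this enzyme was detectable with 3 libraries per group.

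At 12 h the leaf markers were lower at 27 °C in both genotypes. They were also lower in ino80 than in Col at 27 °C, and overlapped between the genotypes at 21 °C. The root and seed markers were higher in ino80 at both temperatures. The root and seed sums overlapped between the temperatures in each genotype. The summed level of 3 leaf markers was 31558 to 35780 TPM in ino80 at 27 °C and 52720 to 58557 TPM in ino80 at 21 °C, against 39983 to 44638 and 56705 to 63984 TPM in Col. The 4 root markers summed to 3701 to 4057 and 3449 to 3841 TPM in ino80, against 1820 to 2576 and 1853 to 2087 TPM in Col. The 3 seed storage markers summed to 22.1 to 39.9 and 15.3 to 24.6 TPM in ino80, against 4.31 to 19.1 and 1.43 to 6.74 TPM in Col. The 3 floral markers summed to 2.85 to 3.28 and 1.25 to 2.17 TPM in ino80, against 0.311 to 1.31 and 0.396 to 0.895 TPM in Col. Their sum was thus higher in ino80 at both temperatures, although the floral organ marker AP3 was at 0 in all ino80 libraries. The part of these shifts in the differences of the 10 genes was not tested.

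The warmth response of the 10 genes was not shown to differ between the genotypes. In the interaction, the warmth response in ino80 minus that in Col, 0 of 9 were called at 1 h and 0 of 10 at 12 h by limma, beside 1.88% and 0.751% of all tested genes (1.09% and 0.327% higher, 0.792% and 0.424% lower). At an unadjusted p below 0.05 there were 1 at 1 h, EDS1, and 2 at 12 h, SARD1 and PR5. PR5 had the smallest p of these, with an interaction of 0.92 ± 0.27 at 12 h (adjusted p = 0.15) and a 95% interval of 0.34 to 1.49, unadjusted for the number of genes. SARD1 had 0.91 ± 0.32 at 12 h (adjusted p = 0.24), and EDS1 -0.23 ± 0.09 at 1 h (adjusted p = 0.25). The interval for CBP60G was -0.31 to 0.78 at 1 h and -0.88 to 0.60 at 12 h, so a moderate difference between genotypes was not detectable with 3 libraries per group. For PAD4 it was -0.29 to 0.31 and -0.37 to 0.39.

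Across the 12 libraries of the 1 h table, 6 of the 9 tested genes went together. CBP60G, PAD4, SNC1, ICS1 and NPR1 had Pearson r of 0.89 to 0.96 with one another on log2(TPM + 1), and PR5 had r of 0.72 to 0.78 with each of them. EDS5 ran the other way against these 5, with r from -0.65 to -0.56, and EDS1 and WRKY70 had r between -0.31 and -0.10 with them. At 12 h most of these values were lower, and CBP60G had r of 0.57 with PAD4 and with WRKY70, and 0.13 with SNC1. The strongest pairs at 12 h were ICS1 with EDS5 at 0.79 and SNC1 with PR5 at 0.77, and SARD1 had 0.70 with PAD4. These values describe libraries that share the same 4 groups, so that r mixes differences between groups with differences between libraries of a group. At 12 h the group means of ICS1 (4.03 to 4.29 TPM) and of EDS5 (5.15 to 5.86 TPM) lay close together. No test was made.

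**Figure D3:**
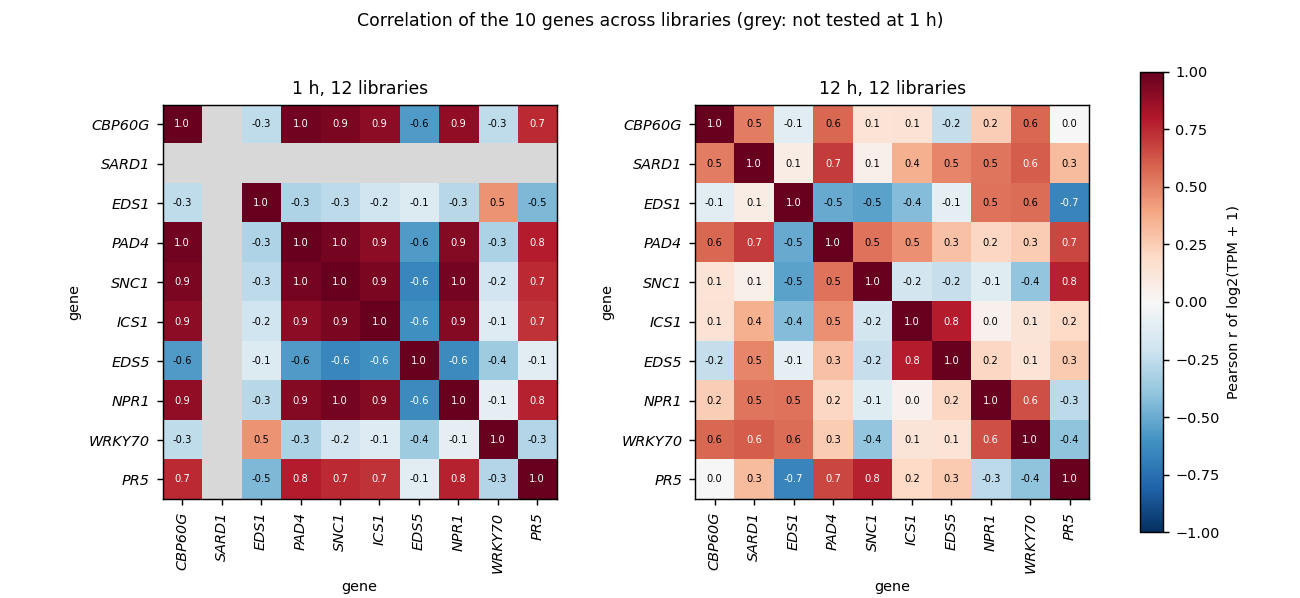
Pearson r of log2(TPM + 1) between the 10 genes over the 12 libraries of the 1 h table (left) and of the 12 h table (right), with SARD1 at 1 h in grey because it was not tested. At 1 h CBP60G and PAD4 have r of 0.96 and EDS5 is negative against both (-0.56), whereas at 12 h the r of CBP60G and PAD4 is 0.57.

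Among 18826 other genes tested in both tables, the 5 whose pattern was most like that of CBP60G were ranked by the smaller of the r values at 1 h and 12 h, each over 12 libraries. They were AT2G44370, annotated as a Cysteine/Histidine-rich C1 domain protein (r = 0.89 and 0.86), AT1G30700, a FAD-binding berberine family protein (0.86 and 0.90), and AT5G64120, a peroxidase (0.95 and 0.84). The other two were AT5G39580, also a peroxidase (0.84 and 0.83), and AT5G41750, a disease resistance protein of the TIR-NBS-LRR class (0.82 and 0.86). Of the other genes of the set, PAD4 ranked 282nd with its smaller r of 0.57.

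The wider pathway was described with 59 further genes in 7 lists, of which 46 were tested at 1 h and 48 at 12 h. After 1 h of warmth 7 of them rose and 15 fell in ino80, beside 15.2% and 16.8% of all tested genes, and 8 rose and 20 fell in Col, beside 15.7% and 18.5%. After 12 h 23 rose and 6 fell in ino80, beside 38.1% and 19.3% of all tested genes, and 27 rose and 7 fell in Col, beside 36.8% and 21.8%. Between genotypes at 27 °C, 13 were higher and 8 lower in ino80 at 1 h, beside 17.1% and 20.4%, and 19 were higher and 4 lower at 12 h, beside 18.7% and 11.5%. At 21 °C the counts were 11 and 14 at 1 h, beside 15.4% and 20.5%, and 16 and 4 at 12 h, beside 16.7% and 12.1%. As deposited, higher calls outnumbered lower ones over all genes in the pairwise contrasts at 12 h, as well as in these lists. With rescaling by the median of ratios, lower calls outnumbered higher ones over all genes. Between the genotypes there were then 2736 higher and 3207 lower at 27 °C, and 2846 and 3015 at 21 °C. The median log2 fold change for warmth over these genes was -0.11 in ino80 and -0.24 in Col at 1 h, and 0.32 and 0.30 at 12 h, beside 0.15 and 0.13 over all tested genes at 12 h. With rescaling by the median of ratios, 17 rose and 6 fell in ino80 and 19 rose and 10 fell in Col at 12 h, and 0 of the called genes changed sign.

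Of 5 tested WRKY factors induced by the hormone, 3 fell in ino80 and 5 fell in Col after 1 h of warmth, beside 16.8% and 18.5% of all tested genes. After 12 h 1 of 5 tested rose and 2 fell in each genotype. The shares of all tested genes were 38.1% and 19.3% in ino80, and 36.8% and 21.8% in Col. WRKY18, a regulator of defence genes, fell at 1 h by 0.97 in ino80 and by 1.24 in Col, and at 12 h by 0.35 and 0.71. It was higher in ino80 than in Col at 27 °C by 1.05 at 1 h and 1.27 at 12 h, and at 21 °C by 0.77 and 0.91. WRKY53 fell at 1 h by 0.47 in ino80 and by 0.99 in Col, and was not called at 12 h. WRKY40, which works together with WRKY18, had a log2 fold change at 1 h of -0.08 in ino80 (not called) and fell by 1.63 in Col. This difference passed the interaction test (1.55 ± 0.20, adjusted p = 0.00071). With warmth at 12 h WRKY40 rose by 0.75 in ino80 and 0.92 in Col, values that include the offset of all genes of 0.15 and 0.13. Its log2 difference between ino80 and Col at 21 °C was -2.38 at 1 h, the lowest of any of the listed genes. In the interaction test at 1 h NPR3, a receptor that represses defence genes, had 0.64 ± 0.14 (adjusted p = 0.034). GRX480, a glutaredoxin that binds TGA factors, had 0.89 ± 0.19 there (adjusted p = 0.027). With WRKY40 these were 3 of the 46 genes tested at 1 h, beside 1.88% of all tested genes, with 14 at an unadjusted p below 0.05. At 12 h limma called 0 of 48 in the interaction, beside 0.751%, with 7 at an unadjusted p below 0.05.

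Of 5 tested genes for conversion of the hormone 4 rose in each genotype at 12 h, beside 38.1% and 36.8% of all tested genes (with rescaling 3 rose in ino80, and 4 rose and 1 fell in Col), with DMR6, a salicylic acid hydroxylase, at 1.23 in ino80 and 1.34 in Col, and the glucosyltransferase gene UGT74F2 at 1.12 and 1.22. UGT74F1, which also glucosylates the hormone, was not called for warmth at 12 h (-0.09 and -0.22) and was higher in ino80 than in Col by 0.64 at 27 °C and 0.51 at 21 °C. The next list joins genes of salicylic acid synthesis and export with genes of the pipecolate pathway. All 3 of its genes tested at 1 h rose in both genotypes, beside 15.2% and 15.7% of all tested genes. EPS1, which completes salicylic acid from its conjugated precursor, was at 0.26 in ino80 and 0.35 in Col. AT5G52810 (SARD4), a gene of the pipecolate pathway, was at 0.34 and 0.36. FMO1, which makes the immune signal N-hydroxypipecolate, was not tested at 1 h and was higher in ino80 than in Col at 27 °C by 1.27 at 12 h. AT5G52810 fell at 12 h by 0.66 in ino80 and by 0.49 in Col.

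The list of EDS1 partners and immune receptors has 10 genes, not all of them receptors. Of these 6 fell and 0 rose at 1 h in each genotype, beside 16.8% and 18.5% of all genes called lower. At 12 h 4 rose and 1 fell in ino80, beside 38.1% and 19.3%, and 6 rose and 1 fell in Col, beside 36.8% and 21.8% (with rescaling 4 and 1 in ino80, and 4 and 2 in Col). ADR1-L1, a helper receptor that acts with EDS1 and PAD4, was at -0.96 in ino80 and -1.29 in Col at 1 h, and at 0.82 and 0.76 at 12 h. ADR1-L2 of the same family was at -0.42 and -0.50 at 1 h, and at 0.73 and 1.03 at 12 h. AT5G66910 was not called at 1 h and rose by 1.00 and 0.76 at 12 h. ADR1-L1 overlaps other annotated genes on the opposite strand by up to 1944 bases, so its value is uncertain. In the list of regulators of SNC1, CBP60G and SARD1, all 8 tested genes rose at 12 h in both genotypes, beside 38.1% and 36.8% of all tested genes, among them SR1, a calmodulin-binding CAMTA factor that represses CBP60G and SARD1, at 0.40 in each, AT5G62570 at 0.27 and 0.46, and AT5G64220 at 0.43 and 0.42. These sizes include the offset of all genes of 0.15 and 0.13, and with rescaling 6 of the 8 were called higher in each genotype, without AT5G62570 in ino80. At 1 h SR1 had fallen by 0.56 in ino80 and by 0.52 in Col, and AT5G62570 by 0.60 and 0.65.

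Of the 12 tested NPR, NIMIN and TGA genes 2 fell in ino80 and 5 fell in Col at 1 h, with none called higher. Of all tested genes 16.8% and 18.5% were called lower there. At 12 h 5 rose and 1 fell in ino80, beside 38.1% and 19.3% of all tested genes. In Col 7 rose and 1 fell, beside 36.8% and 21.8% (with rescaling 3 and 1 in each genotype). In ino80 the 2 lower calls at 1 h and the 5 higher calls at 12 h are close to the shares of all genes. NPR3 rose at 12 h by 0.78 in ino80 and 0.81 in Col, and NPR4, also a receptor for the hormone, by 0.85 and 0.51. TGA3, a partner of NPR1 on DNA, fell at 1 h by 0.60 in ino80 and by 0.66 in Col. Of the output genes 3 were tested at 1 h and 4 at 12 h. At 1 h 1 rose and 0 fell in ino80, beside 15.2% and 16.8% of all tested genes. In Col 1 rose and 1 fell, beside 15.7% and 18.5%. At 12 h 1 rose and 1 fell in ino80, beside 38.1% and 19.3%. In Col 1 rose and 2 fell, beside 36.8% and 21.8%. ACD6, a membrane protein that promotes the pathway, rose at 1 h by 0.70 in ino80 and 1.37 in Col. At 12 h ACD6 was not called in ino80 (-0.11) and fell by 0.40 in Col. GRX480 was not called at 1 h in ino80 (0.13) and fell by 0.76 in Col, and it rose at 12 h by 1.78 and 1.63. NUDT6, a Nudix hydrolase, was not called at 1 h and fell at 12 h by 0.56 and by 0.84.

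**Figure D4:**
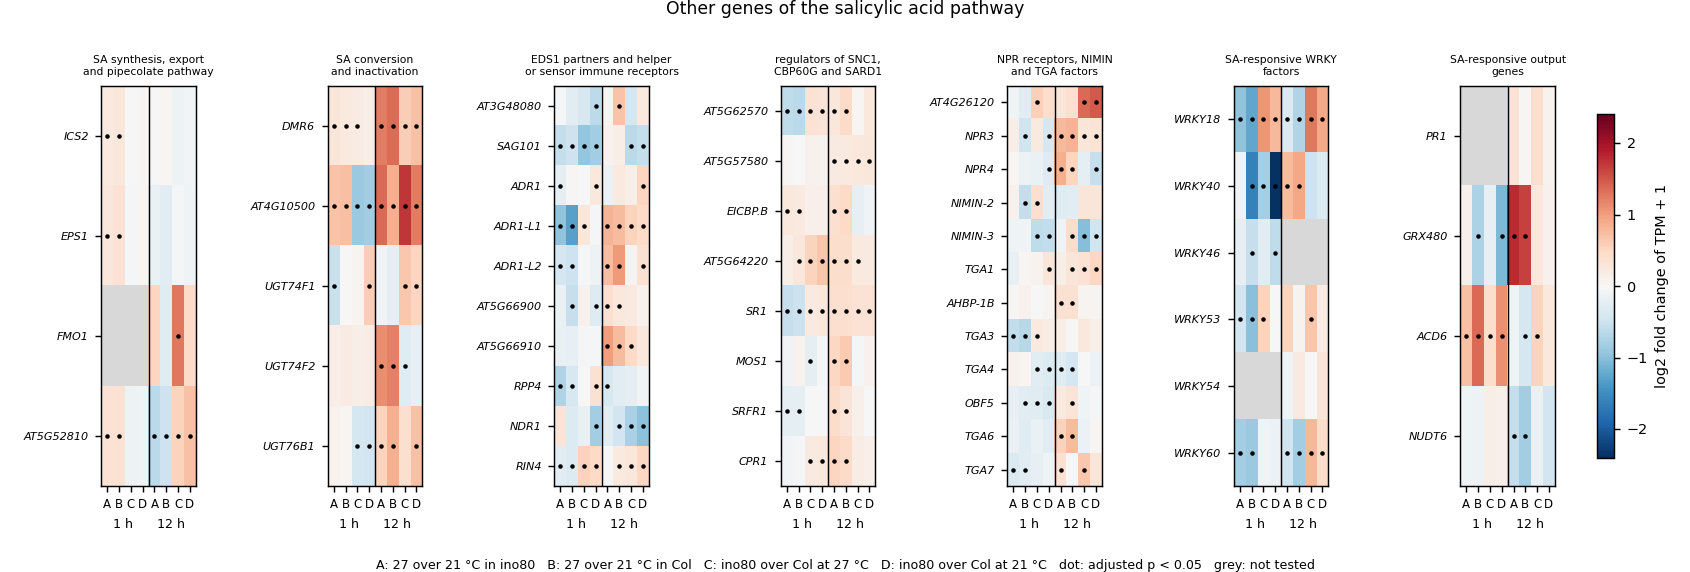
Log2 fold changes of TPM + 1 for the tested genes of the 7 pathway lists, with columns A to D for warmth in ino80, warmth in Col, ino80 over Col at 27 °C and ino80 over Col at 21 °C at each time (red: higher; blue: lower; dot: adjusted p below 0.05; grey: not tested). For warmth at 1 h, 3 of 5 tested WRKY genes are called lower in ino80 and 5 of 5 in Col, beside 16.8% and 18.5% of all tested genes. For warmth at 12 h all 8 regulator genes are called higher in both genotypes, beside 38.1% and 36.8% (6 of 8 called with rescaling by the median of ratios).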

How the data were processed

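TPM values per gene and library were computed by the authors and deposited as 1 table per time. The submitters' processing notes name the build TAIR10 and the tools DESeq2 1.26.0, HTSeq 0.11.2, fastp 0.20.1 and HISAT2 2.1.10. The gene lengths, strand setting and gene filter behind the tables are not given in the sources used here. Groups came from the labels. Each table was fitted alone with limma 3.58.1 (R 4.3.3) on log2(TPM + 1), with 4 group means, trend moderation and all 12 libraries, for genes with at least 1 TPM in at least 3 libraries. The tests are two-sided, with Benjamini-Hochberg adjustment over all tested genes (19190 and 19578), and calls are at adjusted p below 0.05. The procedure was tested on simulated data. Fragments per library were estimated from the steps between low TPM values and TAIR10.1 transcript lengths, and they limit counting precision only. Symbols, promoters and overlaps came from TAIR10.1, matched by locus identifier for all 10 genes. Similar copies were found with blastn 2.17.0.

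The 10 genes and the pathway and marker lists were chosen with earlier results of these data known. From each list the text names up to 3 genes with the largest moderated statistic over the 8 pairwise contrasts, and the 3 listed genes called in an interaction test were named after their values were seen. Alternatives were pseudocounts of 0.1 and 5, no filter, a mean TPM of at least 5, rescaling by the median of ratios, quantile normalization, a replicate block, robust moderation, compared groups alone, a log2 fold change of at least 1, and each library left out.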

Additional observations from a re-analysis of the deposited data

Results flagged for a closer look

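For 2 of the 10 genes the same contrast went in opposite directions at the 2 times with every library, and the difference between times was not tested because the tables were scaled apart. How many of all tested genes did so was not counted, so it cannot be said whether 2 of 10 is unusual. In the contrasts concerned, 40.6% to 63.0% of all tested genes had groups without overlap at a given time. NPR1 differed with warmth in ino80 by -0.40 at 1 h, where it was called lower, and by 0.14 at 12 h, where it was not called (adjusted p = 0.15, limma) and where all genes had a median of 0.15. With rescaling by the median of ratios the 12 h value was -0.02, and with quantile normalization it was -0.04, so the opposite direction of NPR1 does not hold under these scalings. PR5 differed between ino80 and Col at 27 °C by -0.72 at 1 h and by 0.76 at 12 h, and both were called. PR5 was 6.28 to 7.70 TPM in ino80 and 11.1 to 12.7 TPM in Col at 1 h, and 4.07 to 5.46 TPM in ino80 and 1.73 to 3.50 TPM in Col at 12 h.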

How the results depend on the processing

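No gene reversed a called direction under any alternative tried. Requiring that the log2 fold change also reach 1 in size left 2 called genes for warmth in ino80 and 2 in Col at 1 h, 0 for genotype at 27 °C and 0 at 21 °C at 1 h, 2 for warmth in ino80 and 1 in Col at 12 h, and 2 for genotype at 27 °C and 0 at 21 °C at 12 h. Leaving out 1 library at a time gave 1 to 3 called genes for genotype at 21 °C at 12 h. The other counts stayed within 1.5 times of the values given above. Under the settings other than that threshold, 38 single-gene results changed their call, with 16 gaining it and 22 losing it, and the genes and libraries concerned are named beside their values above.

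The labels do not say that replicate numbers pair the samples. Same-numbered libraries had r of -0.05 to 0.12 between their deviations from the group means at 1 h, with 2 of 18 pairs over 0.1, and -0.29 to 0.20 at 12 h, with 3 of 18. At 1 h 8 of 12 libraries correlated best with their own number, a hint of pairing from the data and not the design, and at 12 h 2 of 12 did. With the replicate block, 7 genes were called for warmth in each genotype at 1 h and 5 in each at 12 h, and its 1 changed call was SARD1 in Col at 12 h (adjusted p = 0.036, limma). Depth limits SARD1, at an estimated 2 to 33 fragments at 1 h, and WRKY70, at 6 to 45.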
